A study of Homo sapiens with 2 samples.

Results

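The genes of telomerase and of shelterin, the protein complex that caps telomeres, were examined for open chromatin in B2B cells. The set was a list of 9 genes taken by name from 38899 annotated genes, of which 20033 code for proteins and 18866 are long non-coding RNA (lncRNA) genes. It held TERT, TERC and DKC1 of telomerase, and TERF1, TERF2, TERF2IP, TINF2, ACD and POT1 of shelterin. They were chosen by name and role, with earlier results of these data known. Open chromatin had been profiled by ATAC-seq, which uses the transposase Tn5 to tag accessible DNA with sequencing adapters. B2B is BEAS-2B, an immortalized, non-cancerous line of human bronchial epithelial cells, here of wild type (WT) genotype and untreated, in 2 biological replicates. The line was immortalized with SV40, which limits it as a model of normal bronchial epithelium. With 1 condition, no groups were compared and no test was run.

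Telomerase lengthens chromosome ends by copying a template within its own RNA. TERT is the reverse transcriptase, TERC is the RNA that carries the template, and DKC1 encodes dyskerin, which binds and stabilizes TERC. Shelterin coats the telomere repeat: TERF1 and TERF2 bind the double strand, POT1 binds the single strand, ACD (TPP1) recruits telomerase and pairs with POT1, TINF2 (TIN2) bridges these proteins, and TERF2IP (RAP1) is held at telomeres by TERF2. In most human somatic cells TERT is the limiting component and is kept silent, whereas TERC and the shelterin genes are widely transcribed.

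Promoter sequences of the RefSeq table for GRCh38.p14, which share hg38 coordinates, were found for 6 of the 9 genes, TERT, DKC1, TERF2IP, TINF2, ACD and POT1. Each ran from 250 bases before the transcription start site (TSS) to 50 bases after it, on the gene's own strand. The 4 printed here are those the results turn on, namely the TERT promoter that carried a peak in 1 replicate, the tall promoters of POT1 and DKC1, and the start region that TERF2IP shares with KARS1. Capitals mark exact matches, on either strand, to the GC box (GGGCGG), the E-box (CACGTG), an ETS site (CCGGAAG), the CCAAT box, the NRF1 core (CGCATGCG) or a YY1 site (AAGATGGC). The TERT window lay at chr5:1295019-1295318 on the minus strand, the POT1 window at chr7:124929776-124930075 on the minus strand, the DKC1 window at chrX:154762614-154762913 on the plus strand, and the TERF2IP window at chr16:75647523-75647822 on the plus strand.
TERT: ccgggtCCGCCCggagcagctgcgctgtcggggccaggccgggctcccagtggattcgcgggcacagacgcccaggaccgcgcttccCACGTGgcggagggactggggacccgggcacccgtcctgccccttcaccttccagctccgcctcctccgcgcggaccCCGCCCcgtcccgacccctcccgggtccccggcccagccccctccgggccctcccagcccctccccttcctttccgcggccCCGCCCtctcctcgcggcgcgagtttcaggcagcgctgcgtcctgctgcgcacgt
POT1: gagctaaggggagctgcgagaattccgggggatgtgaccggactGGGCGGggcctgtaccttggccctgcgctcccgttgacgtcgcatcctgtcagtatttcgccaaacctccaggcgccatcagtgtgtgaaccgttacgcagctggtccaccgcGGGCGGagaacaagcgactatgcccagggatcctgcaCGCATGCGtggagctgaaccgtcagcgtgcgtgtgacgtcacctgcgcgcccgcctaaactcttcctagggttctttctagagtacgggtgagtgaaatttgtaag
DKC1: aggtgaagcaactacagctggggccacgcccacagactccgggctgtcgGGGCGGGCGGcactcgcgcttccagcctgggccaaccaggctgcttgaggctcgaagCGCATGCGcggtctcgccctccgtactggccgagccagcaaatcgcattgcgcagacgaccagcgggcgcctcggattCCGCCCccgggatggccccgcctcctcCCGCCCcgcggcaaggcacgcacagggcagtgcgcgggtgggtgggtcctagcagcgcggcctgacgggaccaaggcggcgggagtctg
TERF2IP: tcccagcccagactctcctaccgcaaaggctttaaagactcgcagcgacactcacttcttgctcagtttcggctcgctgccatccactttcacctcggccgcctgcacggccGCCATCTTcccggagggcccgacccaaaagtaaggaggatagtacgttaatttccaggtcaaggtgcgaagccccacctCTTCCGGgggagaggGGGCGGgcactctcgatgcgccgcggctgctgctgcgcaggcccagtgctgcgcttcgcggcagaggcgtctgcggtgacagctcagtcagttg

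The G and C content of the 6 windows ran from 60.3% at POT1 to 77.3% at TERT. All were above the median of 58.7% over all 35116 windows of the table, whose quartiles were 47% and 68%. POT1, TERF2IP (63%) and TINF2 (65.3%) lay between those quartiles, whereas ACD (70%), DKC1 (72.3%) and TERT lay above them. The GC box, bound by the SP1 family, was found in 6 of 6 windows with 14 matches in all, and 45.0% of all windows held it. At TERT it stood at positions −244, −86 and −5, counting the first base of the match from the TSS. The NRF1 core was found at DKC1 (−144) and POT1 (−56), and in 2.02% of all windows. An ETS site was found at TERF2IP (−59) and TINF2 (−8), against 10.3% of all windows. The E-box, which MYC and USF proteins bind, was found only at TERT (−163) among the 6, against 7.26% of windows. TINF2 alone held a CCAAT box (−60, 34.6% of windows), which touched a GC box at −66, and TERF2IP alone held the YY1 site (−138, 2.89%). The KARS1 TSS lies 108 bp upstream of that of TERF2IP on the opposite strand, so the YY1 match lies inside KARS1. No window held TATAAA (11.5% of all windows), the AP-1 site TGANTCA (7.71%) or the telomere repeat TTAGGG (9.05%), the unit that TERF1 and TERF2 bind at chromosome ends. A match is a description of letters and not a binding site.

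After peaks off chromosomes 1 to 22, X and Y were left out, 28735 peaks remained in replicate 1 and 36162 in replicate 2. Peak height is given as fold enrichment, the fragments at the summit over the local background with 1 added to each. The genome-wide background was 4.77 fragments in replicate 1 and 3.41 in replicate 2, so equal fragments gave a lower fold in replicate 1. Over the 10461 protein-coding genes with a promoter peak in both replicates the median shift of replicate 2 from replicate 1 was 0.19 on the log2 scale, and 71.5% were higher in replicate 2. Among 12 markers of epithelial cells a promoter peak was found at KRT18 alone, whereas 8 of 12 mesenchymal markers had one in both replicates, beside 52.2% of all protein-coding genes. TP63, KRT5, KRT14, ESRP1, CLDN4 and ELF3 of the epithelial list have CpG-poor promoters, in classes of genes where 6.49% to 21.0% had such a peak. Of the mesenchymal list ZEB2, COL1A2, COL3A1 and SPARC lie in classes of 2.10% to 21.0%, and of these SPARC alone had such a peak. The part of CpG content in the counts of both lists was not tested. CDH1 and EPCAM, which define epithelial cells, had none in either replicate, and VIM had a mean fold of 7.18 ± 0.363 (SD, n = 2).

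Promoters reached 1 kb upstream and downstream of the start of the canonical transcript. The value of a promoter was the fold of its highest peak, read at the summit and so not scaled by gene length. Of the 9 genes, 8 had a promoter peak in both replicates, 8 in replicate 1 and 9 in replicate 2. Among all protein-coding genes 52.2% had one in both replicates, and among all lncRNA genes, the class of TERC, 18.8%. The exception was TERT, whose promoter carried a peak in replicate 2 alone. The highest promoter peak covered the TSS itself for 8 genes in replicate 1 and for 9 in replicate 2. The members' median fold was 11.1 over 8 genes in replicate 1 and 12.1 over 9 genes in replicate 2, where TERT was included. Over the same 8 genes it was 13.2 in replicate 2. The protein-coding genes with a promoter peak had medians of 7.97 and 9.06, whereas the members' medians included the lncRNA gene TERC. In these bulk libraries, a low peak in every cell and a peak in fewer of the cells cannot be told apart.

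**Figure D1:**
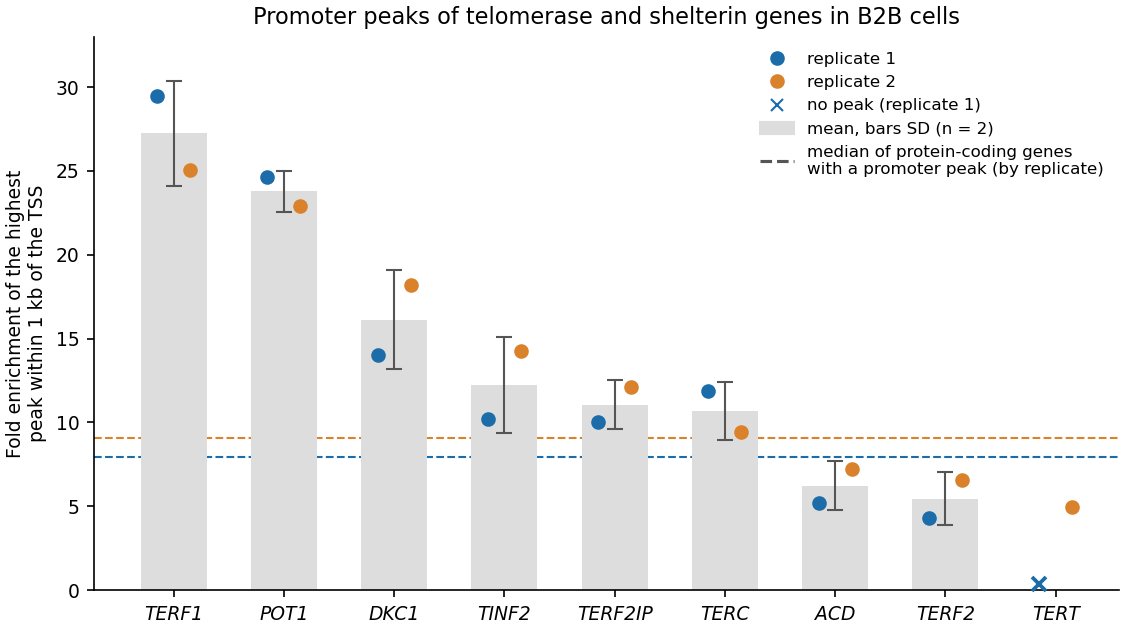
Fold enrichment (linear axis) of the highest peak within 1 kb of the TSS for each telomerase and shelterin gene, with a point per replicate, a grey bar for the mean and SD bars (n = 2). Dashed lines mark the medians of protein-coding genes with a promoter peak, 7.97 in replicate 1 and 9.06 in replicate 2; 6 genes lie above both lines, ACD and TERF2 lie below both, and TERT has a point of 4.98 in replicate 2 only.

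TERT spans chr5:1253147-1295068 on the minus strand with 16 exons (ENSG00000164362.21). No TERT promoter peak was listed in replicate 1, and replicate 2 listed one of fold 4.98 at chr5:1294986-1295605, with its summit 29 bp upstream of the TSS. It rested on 21 fragments at the summit and a −log10 q of 8.06, the strength of the call after correction for all positions, and 18.3% of the peaks of replicate 2 had a lower one. Its fold was below those of 10406 of the 11609 protein-coding genes with a promoter peak in that replicate. Replicate 1 had the higher genome-wide background, and 1439 of its peaks rested on 21 fragments or fewer (5.02% of those with a fragment count). In replicate 2 the same held for 7261 peaks (20.1%). At the background of replicate 1, 21 fragments give a fold of 3.81, and 1922 of its peaks (6.69%) had that fold or less. Why replicate 1 listed no TERT peak was not tested. The nearest peak of replicate 1 on the upstream side lay 32001 bp from the TSS, and on the other side 336 kb. TERT held 120 CpG dinucleotides within 500 bp of its TSS, which put it in the highest of 10 equal groups of protein-coding genes by CpG count, and 72.5% of the genes of that group had a promoter peak in both replicates. All 300 bases of the TERT sequence printed above lay in the peak of replicate 2.

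TERC, a lncRNA gene of 1 exon, lies at chr3:169764520-169765060 on the minus strand (ENSG00000270141.3). Its promoter peak had a fold of 11.9 in replicate 1 and 9.44 in replicate 2, a mean of 10.7 ± 1.73 (SD, n = 2). The summits stood 16 bp downstream and 45 bp upstream of the TSS, with 75 and 48 fragments. Unlike most promoters, TERC was lower in replicate 2, with a log2 difference of −0.33. Among lncRNA genes with a promoter peak, 726 of 3632 were higher in replicate 1 and 1763 of 4086 in replicate 2. Each replicate also held a smaller promoter peak, of fold 5.205 with its summit at 614 bp past the TSS in replicate 1 and of 4.84 at 406 bp in replicate 2, and these did not overlap each other. An annotation of the conserved vertebrate telomerase RNA starts 13 bp from TERC on the same strand, so both names mark the same start.

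DKC1 spans chrX:154762742-154777689 on the plus strand with 15 exons (ENSG00000130826.19). The fold was 14.0 in replicate 1 and 18.2 in replicate 2, a mean of 16.1 ± 2.96 (SD, n = 2), from 80 fragments in replicate 1 and 101 in replicate 2. This was the highest promoter of the 3 telomerase genes in each replicate, and 1416 and 494 protein-coding genes were higher. The peaks were 739 and 778 bp wide with summits 169 and 116 bp upstream of the TSS at 154762864. Both GC boxes nearest the TSS and the NRF1 core lay inside the peak in both replicates.

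TERF1, which binds the double-stranded repeat and restrains telomere length, had the highest promoter peak of the set. It lies at chr8:73008856-73048123 on the plus strand with 10 exons (ENSG00000147601.15). The fold was 29.5 in replicate 1 and 25.04 in replicate 2, a mean of 27.3 ± 3.13 (SD, n = 2), with 232 and 175 fragments at summits 95 and 102 bp upstream of the TSS. Of all protein-coding genes, 1 was higher in replicate 1 and 12 in replicate 2. Its CpG count of 77 placed it in group 7 of the 10 groups by CpG count, and of the members only POT1 had fewer.

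TERF2, the paralogue that folds the telomere end into a protected loop, had the lowest promoter of the 8 seen in both replicates. It lies at chr16:69355567-69408571 on the minus strand (ENSG00000132604.11), with the canonical TSS at 69386007 and 10 exons. Its folds of 4.33 and 6.57 gave a mean of 5.45 ± 1.58 (SD, n = 2). The peaks were narrow, 243 and 236 bp, with summits 31 and 28 bp inside the first exon and 24 and 28 fragments. The fold of TERF1 was above that of TERF2 in both replicates. The CpG count of TERF2, 101, was above that of TERF1.

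TERF2IP had a fold of 10.05 in replicate 1 and 12.1 in replicate 2, a mean of 11.1 ± 1.45 (SD, n = 2). The gene starts at chr16:75647773 on the plus strand, has 3 exons in the canonical transcript (ENSG00000166848.7), and its TSS lies 108 bp from that of KARS1, the lysyl-tRNA synthetase gene, on the opposite strand. The peaks, 762 and 817 bp wide, covered both starts, so the signal cannot be assigned to either gene. A lower peak stood further inside TERF2IP in each replicate, of fold 4.50 at 763 bp and 4.35 at 836 bp past the TSS.

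TINF2 lies at chr14:24238286-24242663 on the minus strand with 9 exons (ENSG00000092330.19). Its fold was 10.2 in replicate 1 and 14.3 in replicate 2, a mean of 12.2 ± 2.85 (SD, n = 2), with summits 69 and 53 bp upstream of the TSS. The peaks were the widest of the set in replicate 1, at 908 bp, and 1010 bp in replicate 2, and a lncRNA gene named only by its identifier, ENSG00000289979, starts 222 bp away on the opposite strand. The peaks covered both starts, so the signal cannot be assigned to either gene.

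ACD lies at chr16:67657512-67660810 on the minus strand with 12 exons (ENSG00000102977.18), and its fold was 5.198 in replicate 1 and 7.25 in replicate 2, a mean of 6.22 ± 1.45 (SD, n = 2). PARD6A, a cell polarity gene, starts 700 bp away on the opposite strand. In replicate 1 the region held separate peaks, of fold 5.198 with its summit 31 bp inside ACD and of 5.02 with its summit 44 bp upstream of the PARD6A TSS. In replicate 2 a single peak of 1142 bp covered both starts, with its summit 582 bp upstream of ACD and 118 bp upstream of PARD6A. The highest value in replicate 2 was therefore nearer to PARD6A than to ACD.

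POT1, which covers the single-stranded overhang, had the second highest promoter of the set. It lies at chr7:124822386-124929983 on the minus strand with 19 exons (ENSG00000128513.16). The fold was 24.7 in replicate 1 and 22.9 in replicate 2, a mean of 23.8 ± 1.23 (SD, n = 2), from 189 and 142 fragments. Only 27 and 55 protein-coding genes were higher. The summits stood 192 and 220 bp upstream of the POT1 TSS, which is 74 and 102 bp inside the antisense gene POT1-AS1, whose TSS lies 118 bp from that of POT1. The peaks covered both starts, so the signal cannot be assigned to either gene. POT1 had the fewest CpG dinucleotides of the 9 genes, 50, in group 4 of the 10, where 55.9% of genes had a promoter peak in both replicates.

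**Figure D2:**
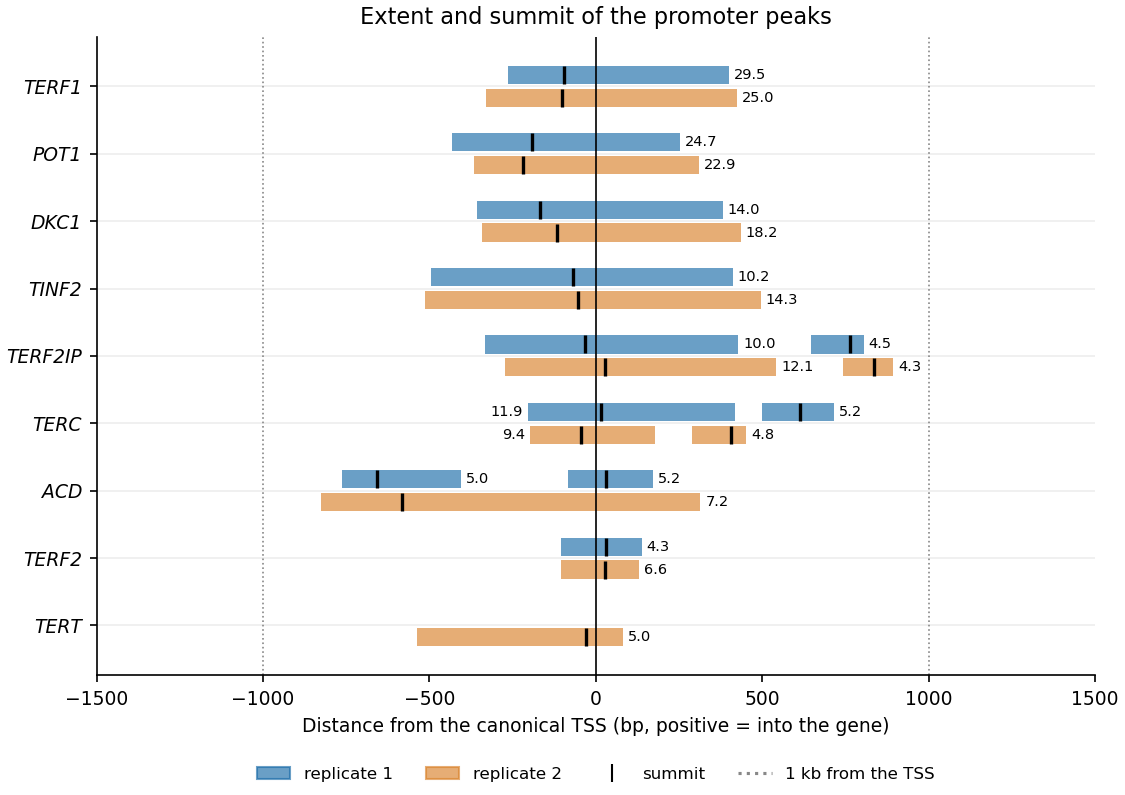
Extent of each promoter peak (bars) and its summit (black line) against distance from the canonical TSS in bp, positive into the gene, for replicate 1 (blue) and replicate 2 (orange), with the fold beside each bar. The summits of the highest peaks lie within 220 bp of the TSS except for ACD in replicate 2, at 582 bp, and TERF2IP, TERC and ACD show more than 1 peak in at least 1 replicate.

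By mean fold the order was TERF1, POT1, DKC1, TINF2, TERF2IP, TERC, ACD and TERF2, followed by TERT with its single value. The replicate values of TERF1 and POT1 did not overlap, nor did those of POT1 and DKC1 or of TERC and ACD. Those of DKC1 and TINF2, TINF2 and TERF2IP, TERF2IP and TERC, and ACD and TERF2 overlapped, so these neighbours did not differ beyond the spread between replicates. Within each replicate, however, DKC1 was above TINF2, TINF2 above TERF2IP and ACD above TERF2, whereas TERF2IP was below TERC in replicate 1 and above it in replicate 2. The ACD value of replicate 2 was read nearer to the PARD6A start, and the TERF2IP peaks also covered the KARS1 start. The POT1 peaks also covered the POT1-AS1 start, with summits nearer to it than to POT1. The TINF2 peaks also covered the start of a lncRNA gene. Between replicates 5 of the 8 genes were higher in replicate 2, whereas TERF1, POT1 and TERC were lower there, with log2 differences of −0.24, −0.11 and −0.33. The protein-coding genes nearest to TERF1 in both replicates were TRIM68, with folds of 29.1 and 26.5, and RAB3C, with 27.8 and 25.7, at Euclidean distances of 0.08 and 0.09 in log2 fold. At TERF2 the nearest were SRRT and BBLN, both with the folds of TERF2 itself, 4.33 and 6.57. The TERF2 peaks stood on the genome-wide background, where whole fragment counts allow few distinct folds. Only 2 genes were kept, so others may share these folds.

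The surroundings of each gene were next searched, with 20 kb added at both of its ends. The 9 spans held 23 regions, of which 15 had a peak of both replicates and 8 of a single replicate. Of the 15, 9 lay at the genes' own promoters, 2 of them at TERF2IP, 3 at promoters of other protein-coding genes and 3 elsewhere. A region of both replicates away from protein-coding promoters was thus present for 3 of the 9 genes, TERC, TERF2 and ACD, where 36.4% of all protein-coding genes had one. The median density of regions of both replicates was 2.15 per 100 kb for the members and 1.64 for protein-coding genes. These densities include each gene's own promoter, which had a peak in both replicates for 8 of 9 members and 52.2% of protein-coding genes. In the spans of TERF1 (79.3 kb) and POT1 (148 kb), whose promoters were the highest, the promoter peak was the only region. In the TERT span of 81.9 kb the promoter peak of replicate 2 was the only one.

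The 3 regions at other promoters lay at MYNN in the TERC span, at GAB3 in the DKC1 span and at NEDD8 and GMPR2 in the TINF2 span. MYNN, a zinc finger gene, had folds of 8.45 and 8.60 with summits 8415 and 8293 bp upstream of TERC. GAB3 had 3.98 and 5.44, below both values of DKC1. NEDD8, a ubiquitin-like modifier gene, and GMPR2 share a region with 5.54 and 9.74. Replicate 2 alone had a peak at the promoters of ACTRT3 (3.70), of COG8 and NIP7 (7.70), of CYB5B (5.89), and of ENKD1 and C16orf86 (4.98), as it did at TERT.

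**Figure D3:**
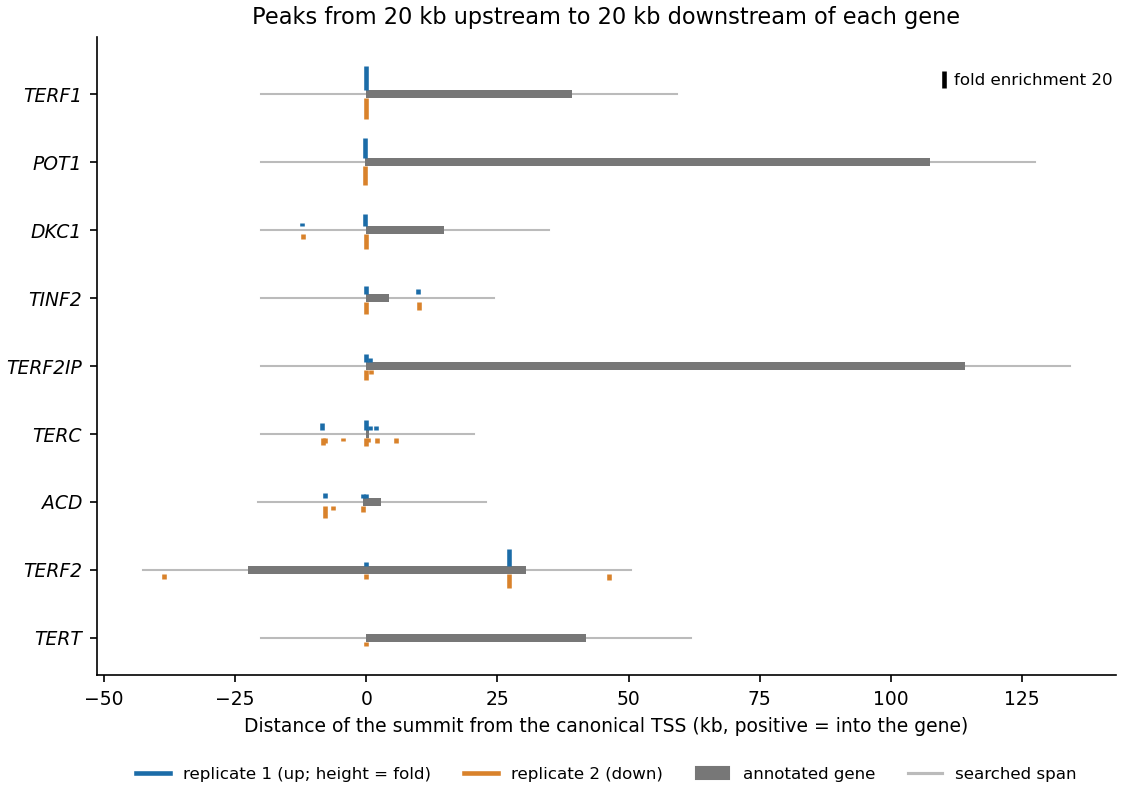
Peaks from 20 kb upstream to 20 kb downstream of each gene, by distance of the summit from the canonical TSS in kb, with replicate 1 drawn upward and replicate 2 downward, height in proportion to fold (scale bar, fold 20), the annotated gene as a grey bar and the searched span as a line. TERF1 and POT1 show a peak only at the TSS, and TERF2 shows its tallest peak 27.3 kb into the gene.

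The 3 remaining regions differed in height. In the TERC span a peak 1916 bp past the TSS in replicate 1 and 2007 bp in replicate 2 had folds of 4.85 and 5.89, above 23.1% and 24.0% in the respective replicate of all regions of both replicates away from protein-coding promoters. In the ACD span a peak in an exon of C16orf86 had folds of 6.41 and 14.5, above 55.5% of such regions in replicate 1 and 92.8% in replicate 2, and was above the ACD promoter in both replicates. Within TERF2 a peak in intron 8 of 9 had folds of 20.4 and 16.99, above 99.1% and 96.4% of such regions, with 117 and 74 fragments. The AP-1 site TGANTCA stood within 100 bp of the summit in 0 of these 3 regions and in 40.2% of the 14830 such regions of the series.

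The TERF2 intron peak, taller than the TERF2 promoter peak in both replicates, matched mitochondrial DNA. Its sequence in replicate 1, at chr16:69358598-69358848 in hg38, is shown on the plus strand to place that match, with capitals for the 124 bases that matched positions 12222 to 12345 of the mitochondrial genome at 88.7% identity.
TERF2 intron 8: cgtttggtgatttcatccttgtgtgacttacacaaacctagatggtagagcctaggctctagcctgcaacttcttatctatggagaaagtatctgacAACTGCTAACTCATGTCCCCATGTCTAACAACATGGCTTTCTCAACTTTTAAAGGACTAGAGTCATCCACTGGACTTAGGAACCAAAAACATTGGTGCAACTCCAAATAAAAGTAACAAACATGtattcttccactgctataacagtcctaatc

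In replicate 2 a match of 48 bases had 97.9% identity, from the same mitochondrial position. Among the 40 peaks of the 9 spans these were the only 2 that matched, and none of the 22 promoter peaks did. Over all peaks 0.386% matched in replicate 1 and 0.288% in replicate 2. Mitochondrial reads can align to nuclear copies of this kind, and their part in the intron peak was not tested. Without such peaks the spans held 14 regions of both replicates.

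The other genes of telomere maintenance were read from a list of 33 that held none of the 9. Of these, 29 had a promoter peak in both replicates (87.9%), 29 in replicate 1 and 30 in replicate 2, with a median fold of 11.1 among the 29, beside 8 of 9 (88.9%) and 11.7 for telomerase and shelterin and 52.2% and 8.92 for all protein-coding genes. All 9 genes of telomerase assembly and trafficking had one, DKC1 included, from NOP10 at 5.86 to NHP2 at 19.9. NHP2 and GAR1, at 15.8, sit with dyskerin in the mature enzyme. All 5 genes that process or degrade TERC had one, from EXOSC10, an exosome nuclease, at 4.40 to ZCCHC8 at 11.9.

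Of the 8 helicases, nucleases and tankyrases that act on telomeres, 8 had a promoter peak in both replicates, with a median fold of 14.8. TNKS, the tankyrase that releases TERF1 from telomeres, had the highest mean of these, 19.9 ± 4.21 (SD, n = 2), and SLX4, a nuclease scaffold, the lowest, 4.58. Of ATRX, DAXX and the MRE11, RAD50 and NBN complex, 4 of 5 had one. ATRX, whose loss accompanies telomere maintenance without telomerase in some tumours, had none in either replicate. The CST complex and polymerase alpha-primase, which fill in the complementary strand, had one in both replicates at 4 of 7 genes, 57.1% beside the 52.2% of all protein-coding genes. STN1 had a mean of 16.0 and TEN1 of 11.4, whereas CTC1, the largest CST subunit, and POLA2 had no promoter peak, and PRIM1 had one in replicate 2 only, of fold 4.30.

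**Figure D4:**
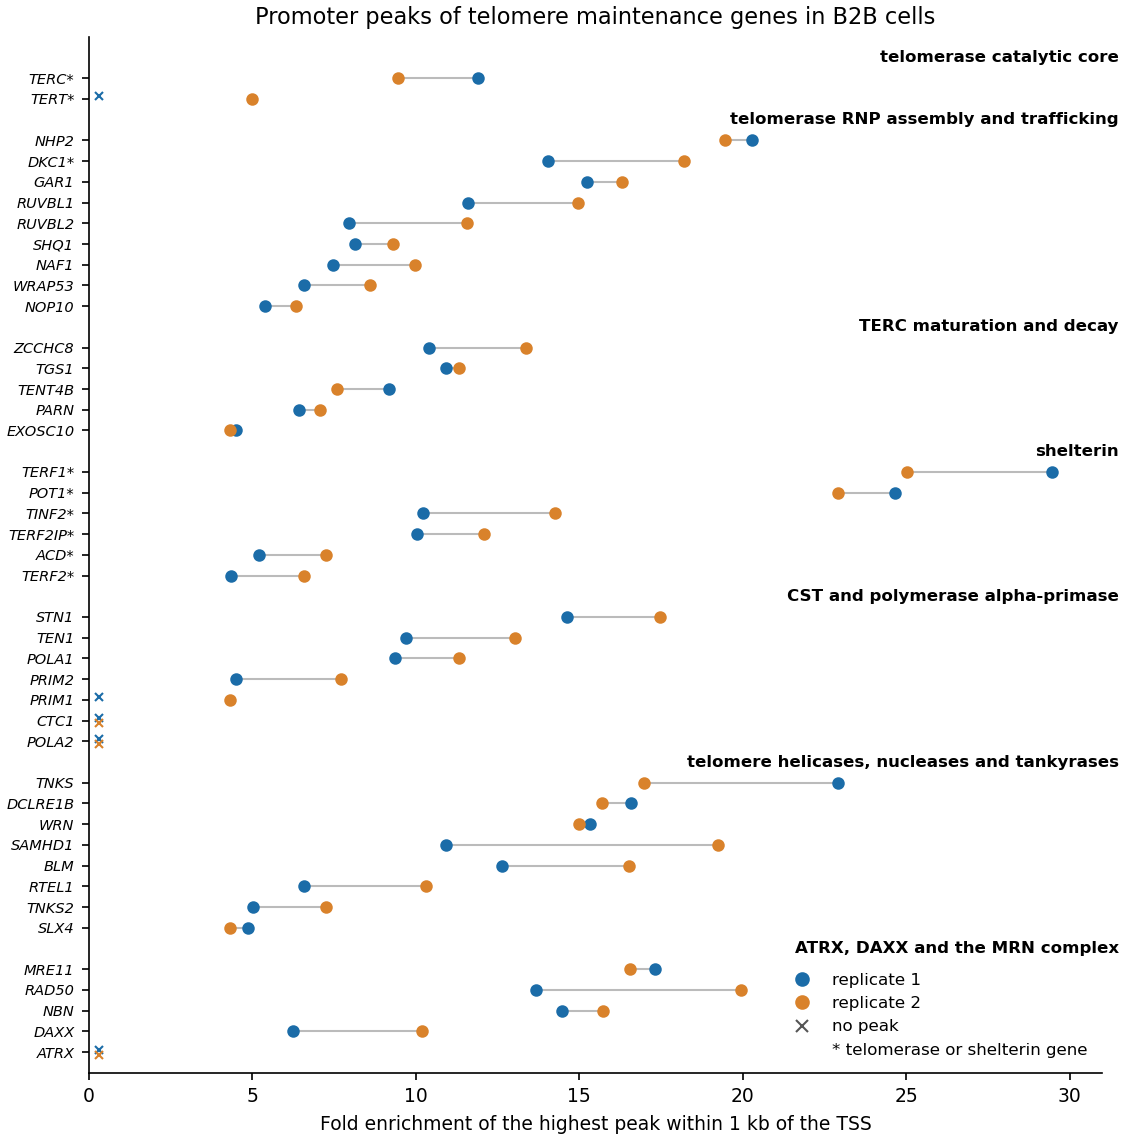
Fold enrichment (linear axis) of the highest promoter peak for the 42 genes of telomere maintenance by group, with replicate 1 in blue, replicate 2 in orange, a cross where no peak was listed and an asterisk on the 9 telomerase and shelterin genes. A peak of both replicates is shown for 37 of the 42, and TERT, PRIM1, CTC1, POLA2 and ATRX lack one in at least 1 replicate.

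CpG content differed widely among protein-coding promoters and with it the share that had a peak. That share was 2.10% in group 1 of the 10 groups by CpG count, 21.0% in group 3, 55.9% in group 4 and between 68.2% and 76.3% in groups 5 to 10. The 7 protein-coding members with a peak in both replicates lay in groups 4 to 9. The members' share therefore stood beside a CpG background above the 52.2% of all protein-coding genes, and the part of CpG content in it was not tested.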

How the data were processed

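ATAC-seq peak lists of 2 biological replicates of B2B cells were used. The authors mapped reads to hg38 with Bowtie2 2.4.4, removed duplicates with their own code and called peaks per replicate with MACS2 2.2.7.1, keeping all remaining reads; SAMtools 1.13 is also named. Any Tn5 shift, the treatment of mitochondrial reads and the q limit were not given in the sources used here. The deposited lists give each peak's fold enrichment as a linear ratio, its −log10 p, its −log10 q, its summit and a score, which was the −log10 q times 10 without decimals and was not used. The lists give no depth, so summit fragments were solved from the fold and −log10 p (tolerance 0.01), which succeeded for 99.7% and 99.8% of peaks. The lowest had 16 and 13 fragments. The paper does not say whether read pairs or single reads were piled up, so a fragment here means a unit of the peak caller's pileup.

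Genes and canonical transcripts were those of GENCODE 44, and the span of a gene was its whole annotated record, which for TERF2 and TERF2IP runs past the canonical transcript. Peaks joined where they overlapped by at least 1 bp. Members and gene lists were chosen with earlier results of these data known. Named genes were the members, the listed genes, genes starting within 1 kb of a member's peak or of a peak in a span, and the 2 protein-coding genes nearest in fold to the highest and lowest member. Sequences came from RefSeq (GRCh38.p14) and hg38. Peak sequences were searched against the mitochondrial genome with blastn (BLAST 2.17.0, E-value limit 1e-10). Python 3.11.15, numpy 2.4.6, pandas 2.3.3, scipy 1.17.1, pysam 0.24.0 and matplotlib 3.10.9 were used, and the steps were tested on simulated data. The settings varied were the −log10 q (5 or more), equal numbers of peaks, promoter windows of 500 bp and 3 kb, any TSS, flanks of 10 and 50 kb, 50% overlap, motif windows and each replicate left out. Requiring a peak to cover the TSS and leaving out mitochondrial matches were added after seeing the data.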

Additional observations from a re-analysis of the deposited data

How the results depend on the processing

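Of 79 recomputed values, 74 stayed within 1.5 times, or within 1 SD for a fold. The mean folds of single genes among the 79 did not change at all, as the same highest peak was read each time. Of the remaining values, 34 stayed and 5 moved. Another 16, the mean fold of single genes without a replicate, are not counted, since with n = 2 they cannot leave 1 SD. The 8 promoters with a peak in both replicates stayed at 8 in every alternative that used both lists. With equal numbers of the strongest peaks, 28735 per list, TERT had a promoter peak in 0 replicates in place of 1. Leaving out each replicate in turn left 1 list, so a peak of both replicates could not be required. This gave 0 to 1 replicates with a TERT promoter peak, as replicate 2 alone listed one. It also gave 17 to 23 regions of the 1 list in place of 15 of both lists, which is a different measure. Over the 8 genes seen in both replicates, and so without TERT, the median fold was 11.1 to 13.2 in place of 11.7. The higher value of each came without replicate 1. With flanks of 50 kb the spans held 30 regions. The cause of these shifts was not tested beyond the change of peaks or span itself. The peak lists hold called peaks alone, so a gene without a peak may have signal below the limit of calling. No paired analysis was possible because both samples are of 1 condition.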
